A study of Mus musculus with 14 samples.

Results

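miR-375 is a microRNA (miRNA) of endocrine cells, and its level was followed across crypt cells of the mouse small intestine sorted by the brightness of a Sox9-eGFP reporter. It was chosen by name, as an endocrine-lineage miRNA that the study links to the proliferation of intestinal stem cells. The mature miRNA miR-375-3p, listed as mmu-mir-375-3p, is 1 of 534 mature names in the deposited table. The table also lists miR-375-5p from the other arm of the same hairpin and shifted forms of both arms, which makes 15 miR-375 entries of 2030 in all.

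All libraries were made from total RNA of C57BL/6J small intestine and are labelled Sox9eGFP, a reporter in which green fluorescence follows the Sox9 gene. Cells were sorted into the populations High, Low, Sublow and Negative, named by their fluorescence and given here from brightest to dimmest, with 3 libraries each, beside 2 libraries of Non-sorted cells. In this reporter mouse, High cells are known to include enteroendocrine cells, Low cells to be rich in crypt stem cells, Sublow cells to be progenitors and Negative cells to be mainly differentiated. The labels give no age, and nothing in them says that replicate libraries came from separate animals. The p-values therefore reflect variation from library to library, which may be technical.

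miRNAs are cut as a pair of strands from a hairpin-shaped precursor, and as a rule a single strand, here miR-375-3p, is kept in the silencing complex while the other is degraded. The kept strand finds its target messages mainly through its seed, the bases 2 to 8. In the pancreas miR-375 is known as an abundant islet miRNA that restrains insulin secretion and is needed for normal numbers of endocrine cells, and in the gut it is known from enteroendocrine cells.

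The miR-375 gene, Mir375, lies on chr1:74900658-74900721 on the minus strand of GRCm38.p6 (RefSeq), and no gene of the GENCODE vM21 annotation overlaps it. The nearest protein-coding genes there are Cfap65, 1350 bases away, and Cryba2, a crystallin gene, 7515 bases away. The hairpin and the minor strand are shown because the results compare the products of the 2 arms. Capitals mark the 5p arm in the hairpin (bases 5 to 26) and the seed in the mature strand, both 5′ to 3′.
Mir375 hairpin: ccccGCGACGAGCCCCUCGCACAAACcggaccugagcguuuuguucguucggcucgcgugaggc
miR-375-5p: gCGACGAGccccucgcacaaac

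Levels are given in RPM over miRNA entries, that is, reads of an entry per 1e+06 reads assigned to any entry of the table. The depth, estimated from the steps between low values, was 1.89 to 16.4 M reads a library (M, 1e+06), with a median of 5.0 M. The smallest listed value equalled 9.99 to 10.9 reads, so a listed 0 means fewer than about 10 reads. miR-375-3p was far above this limit in every library, at an estimated 3357 to 1.59e+06 reads. miR-295-3p, a miRNA of embryonic stem cells, was listed at 395 to 928 RPM in 7 libraries (High 2, Low 2, Sublow 2, Negative 1 and 2, and both Non-sorted libraries) and at 0 in the other 7. Comparisons among sorted populations are therefore also given without these libraries. The labels name sequencing lanes L005, L006 and L008, and for 2 High and 2 Low libraries the word Combo in place of a lane, which is not explained and was handled as a class of its own. No High library shared such a label with a Sublow, Negative or Non-sorted library. High cells therefore have no comparison within a label against these 3 groups. A lane term can separate label and population there only by way of the Low libraries.

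miR-375-3p was highest in High cells and lower in each dimmer population. It had 118336, 135119 and 117014 RPM in the High libraries, 71632, 53119 and 49474 RPM in the Low libraries, 14530, 18384 and 13326 RPM in the Sublow libraries, 656.7, 724 and 1130 RPM in the Negative libraries, and 12519 and 7862 RPM in the Non-sorted libraries. No population overlapped with any other, and the Non-sorted libraries lay between Sublow and Negative. The means were 123490 ± 10093 RPM in High, 58075 ± 11881 RPM in Low, 15413 ± 2643 RPM in Sublow, 837 ± 256 RPM in Negative (SD, n = 3 each) and 10191 ± 3293 RPM in Non-sorted cells (SD, n = 2). In High cells miR-375-3p thus made up 12.3% of all miRNA reads, against 5.81% for Low cells, 1.54% for Sublow cells, 0.0837% for Negative cells and 1.02% for Non-sorted cells. These are bulk samples, in which fewer cells of a type and less RNA per cell cannot be told apart.

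By rank among all 2030 entries, miR-375-3p was the most abundant in each High library. It stood at rank 3, 3 and 6 in the Low libraries, at 17, 11 and 21 in the Sublow libraries, at 75, 73 and 58 in the Negative libraries and at 14 and 22 in the Non-sorted libraries. The relative spread between libraries was smallest in High cells, with a coefficient of variation of 8.17%, and was 20.5% for Low, 17.1% for Sublow, 30.6% for Negative and 32.3% for Non-sorted cells.

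**Figure D1:**
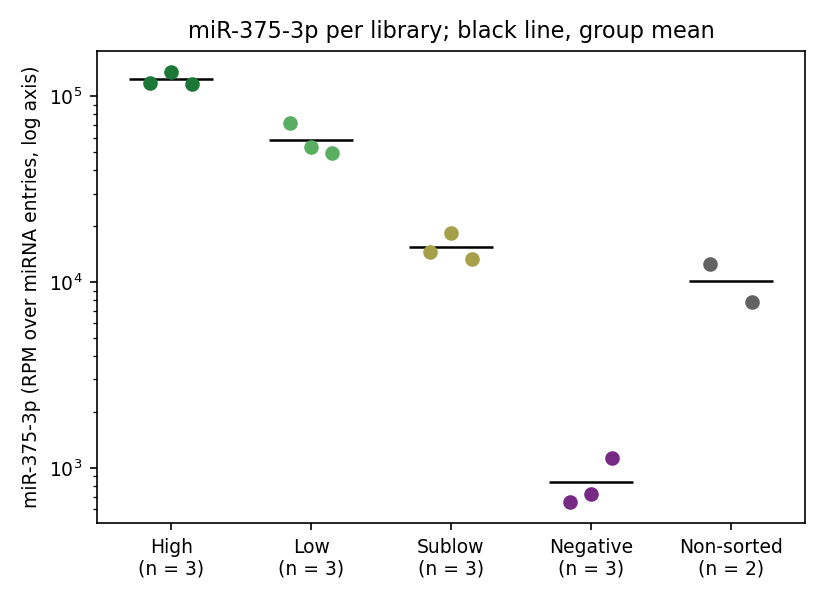
miR-375-3p in each library (points) and the mean of each group (black lines), in RPM over miRNA entries on a log axis. The 3 High libraries sit at 117014 RPM or above and the 3 Negative libraries at 1130 RPM or below, and no group overlaps with another.

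The difference among the 4 sorted populations was tested with limma, an empirical Bayes linear model, on log2(RPM + 1) over 588 entries with at least 10 RPM in at least 3 libraries. miR-375-3p had a moderated F of 383 (adjusted p = 1.08e-09), which was the third largest F of the 588 entries. Differences among these populations were common, since 72.3% of the tested entries passed this test at an adjusted p under 0.05. Below, differences are log2 values of the brighter minus the dimmer population, or of a sorted population minus Non-sorted cells, with limma p-values adjusted by Benjamini-Hochberg over the 588 entries.

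The step between the 2 brightest populations was the smallest of the steps between neighbours among sorted cells, though by less under the other scalings tried. High cells had 2.13 times the mean level of Low cells, a log2 difference of 1.10 with a 95% interval of 0.60 to 1.61 (adjusted p = 0.00413). The lowest High library lay 1.63 times above the highest Low library. In this comparison 28.1% of the 588 entries were called, and 7.99% of the 588 were higher in High. Among the libraries labelled Combo, the only such class with both populations, the difference was 1.30 over 2 High and 2 Low libraries, and without the libraries that list miR-295-3p it was 0.98.

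Low cells exceeded Sublow cells by a mean ratio of 3.77 (log2 1.91, 95% interval 1.40 to 2.41, adjusted p = 7.69e-05). The lowest Low library lay 2.69 times above the highest Sublow library. In this comparison 34.7% of the entries were called. Within the lane L005, where 1 Low and 2 Sublow libraries were read, the difference was 2.36, and without the libraries that list miR-295-3p it was 2.10.

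Between the 2 dimmest populations the step was the largest. Sublow cells had 18.4 times the mean level of Negative cells (log2 4.23, 95% interval 3.73 to 4.73, adjusted p = 3.72e-07), and no other tested entry had a smaller p in this comparison, in which 35.5% of the entries were called. The difference was 3.62 within lane L005 (2 Sublow libraries and 1 Negative) and 4.73 within lane L006 (1 Sublow library and 2 Negative). Without the libraries that list miR-295-3p, which leaves the same libraries as lane L005, it was also 3.62.

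Over the wider steps, High cells exceeded Sublow cells by a mean ratio of 8.01 (log2 3.01, adjusted p = 8.41e-07, 50.5% of entries called) and Negative cells by a ratio of 148 (log2 7.24, adjusted p = 2.19e-10, 66.3% called). Low cells exceeded Negative cells by a ratio of 69.4 (log2 6.14, adjusted p = 1.84e-09, 66.0% called). All 3 differences had a 95% interval well above 0, at 2.51 to 3.52, 6.74 to 7.75 and 5.63 to 6.64. Without the libraries that list miR-295-3p they were 3.08, 6.70 and 5.72, and Low against Negative within lane L005, with 1 library each, was 5.99.

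Against Non-sorted cells, the mean of High cells was 12.1 times as high (log2 3.63, adjusted p = 4.10e-07, 57.7% of entries called) and that of Low cells 5.70 times as high (log2 2.53, adjusted p = 7.87e-06, 60.4% called). Negative cells stood lower, at 0.0821 of the Non-sorted mean (log2 −3.61, adjusted p = 5.43e-06), in a comparison that called only 3.74% of the entries, and no other entry had a smaller p in it. The highest Negative library lay 6.96 times below the lowest Non-sorted library, and within lane L006 the difference was −3.84 over 2 libraries each.

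Sublow and Non-sorted cells were the closest pair. Their values did not overlap, but the lowest Sublow library (13326 RPM) was only 1.06 times the highest Non-sorted library (12519 RPM). The mean ratio was 1.51, with a log2 difference of 0.62 (95% interval 0.06 to 1.19, unadjusted p = 0.0333) that did not pass adjustment by limma (adjusted p = 0.108), while 24.0% of the entries were called. Without Non-sorted replicate 1 the difference was 0.96 and passed (adjusted p = 0.0424), and within lane L006, with 1 Sublow and 2 Non-sorted libraries, it was 0.89. The 4 comparisons with Non-sorted cells share the same 2 libraries.

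**Figure D2:**
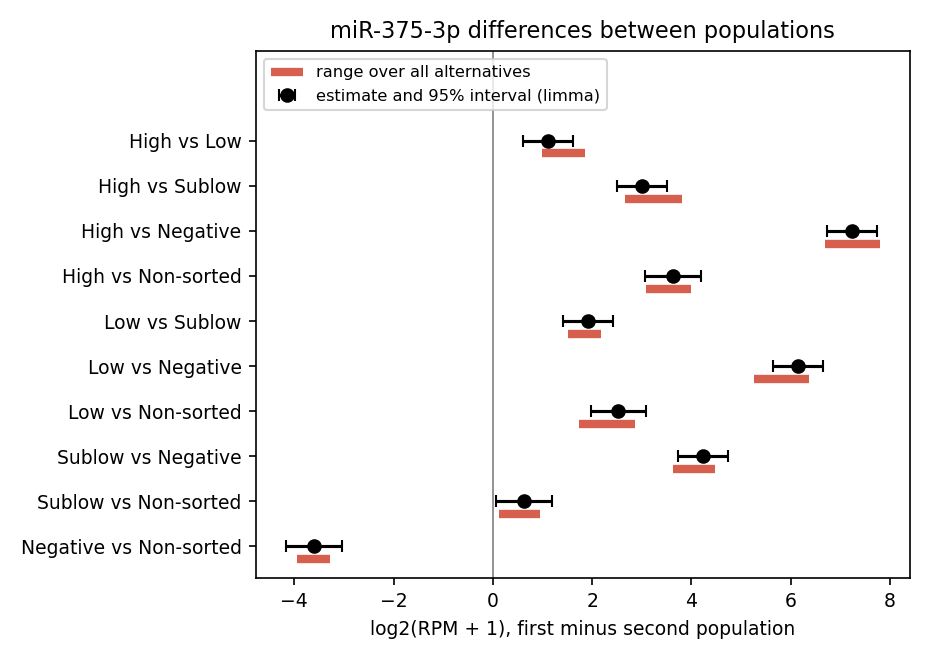
Difference in miR-375-3p for each pair of groups on the log2(RPM + 1) scale, the group named on the left of "vs" minus the other (black points with 95% intervals from limma), and the range of the same value over all alternative settings (red bars). All pairs of sorted populations lie above 0, from 1.10 for High against Low to 7.24 for High against Negative, and Sublow against Non-sorted is nearest to 0.

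Relative values depend on what else is in a library, and the 2 main checks of this moved the size of the step but not its call. Rescaling each library by the median ratio of its entries shifted the median of all entries by −0.84 (log2) for Low against Negative cells, and miR-375-3p then differed by 5.26 in that comparison and by 1.74 between Low and Non-sorted cells. Quantile normalization gave 1.86 for High against Low and 3.81 for High against Sublow. The first steps then came close in size, with 1.94 for Low against Sublow. After median-ratio rescaling they were 1.43 for High against Low and 1.51 for Low against Sublow.

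Over the sorted populations, the summed absorptive list ran against miR-375-3p and the summed epithelial list ran with it. The absorptive list (miR-192-5p, miR-194-5p and miR-215-5p, known from differentiated gut epithelium) summed to 136750 to 163025 RPM in High, 168252 to 195716 RPM in Low, 400632 to 418115 RPM in Sublow, 560040 to 560997 RPM in Negative and 482197 to 570325 RPM in Non-sorted libraries. This sum was lowest in High cells, where miR-375-3p was highest, and the Negative and Non-sorted ranges overlapped. The difference lay in miR-215-5p, which averaged 40381 RPM in High, 48475 RPM in Low, 243442 RPM in Sublow, 340410 RPM in Negative and 343504 RPM in Non-sorted cells, and in both miR-194-5p entries. miR-192-5p did not share this order, with means of 102466 RPM in High, 118239 RPM in Low, 97542 RPM in Sublow, 82725 RPM in Negative and 88932 RPM in Non-sorted cells. At the deposited scaling it was higher in Low than in Negative cells (log2 0.50, limma adjusted p = 0.0055). That difference is smaller than what a change of scaling moves. Leaving miR-215-5p out of the total shifted the median of all entries by −0.52 in this comparison, and median-ratio rescaling by −0.84. The direction for miR-192-5p is therefore not settled. The epithelial list (miR-200 family and miR-141-3p) marked every group as epithelium, at 64771 to 72931 RPM in High, 49187 to 54338 RPM in Low, 36468 to 38763 RPM in Sublow, 24800 to 29347 RPM in Negative and 27148 to 29675 RPM in Non-sorted libraries. Its member miR-200c-3p was lower in High (mean 21067 RPM) than in Low cells (22474 RPM). Its libraries did not overlap there, but limma did not call it (adjusted p = 0.45). The other members had higher means in High than in Low cells. Neither sum was compared under another scaling. Markers of other tissues were scarce in all libraries: the haematopoietic list summed to at most 213 RPM, the mesenchymal list to at most 79.1 RPM and the endothelial list to at most 17.1 RPM, and the erythroid markers miR-451 and miR-144-3p were at 0 throughout. The part of these lists in the miR-375-3p result was not tested.

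Most miR-375-3p reads carried the annotated start, and a name with a sign and a number was read as a start shifted by that many bases, since the table does not define it. A shifted start matters because it moves the seed. Of 12 shifted 3p forms, 10 were above 0 in at least 1 library and 3 of them, the −1, +1 and +2 forms, in all 14, while the other 2 were at 0 throughout. Only 5 shifted forms passed the filter on low values.

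The annotated start held 89.0 ± 0.24% of all miR-375-3p reads in High cells, 87.7 ± 0.31% in Low cells, 87.2 ± 0.80% in Sublow cells, 86.7 ± 1.61% in Negative cells (SD, n = 3 each) and 87.1 ± 0.85% in Non-sorted cells (SD, n = 2). Over all libraries the share was 88.4%, which is rank 51 from the highest among 59 mature names with a mean of at least 1000 RPM, whose median was 96.2% and whose quartiles were 94.5 and 97.9%. The share of miR-375-3p thus lay below the lower quartile of abundant miRNAs.

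Among the shifted forms, the −1 form was the largest, with a mean share of 6.01% in High cells, 6.47% in Low cells, 6.83% in Sublow cells, 7.50% in Negative cells and 6.33% in Non-sorted cells. Its range in Negative cells (6.06 to 8.94%) covered most values of the other populations. The +1 form held 4.31 to 4.84% in High libraries, against 5.29 to 5.80% in Low libraries, 5.22 to 5.78% in Sublow libraries, 5.11 to 5.82% in Negative libraries and 5.84 to 6.36% in Non-sorted libraries. All High libraries lay below all others in this share, and the other sorted populations overlapped with each other. The +2 form made up 0.339% in High cells, 0.362% in Low cells, 0.349% in Sublow cells, 0.438% in Negative cells and 0.415% in Non-sorted cells.

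An exact permutation test of the F statistic over the 12 sorted libraries (two-sided, 369600 labellings, adjusted over 4 forms) found no share past the threshold: the adjusted p was 0.0826 for the +1 form (unadjusted p = 0.0206), 0.0909 for the annotated start, 0.0909 for the +2 form and 0.157 for the −1 form. These calls rested on single libraries. Within each replicate number High libraries had the lowest +1 share, the lowest −1 share and the highest share of the annotated start. For the +2 form High was lowest in 1 replicate number. In the share of the annotated start all High libraries (88.8 to 89.2%) lay above all others, of which Negative replicate 1 was highest (88.4%). Without Negative replicate 1 the exact permutation test passed for all 4 forms (adjusted p = 0.00545 for the annotated start, 0.00857 for −1, 0.0323 for +1 and 0.0378 for +2), and without Negative replicate 3 it passed for the +1 form (adjusted p = 0.0447).

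**Figure D3:**
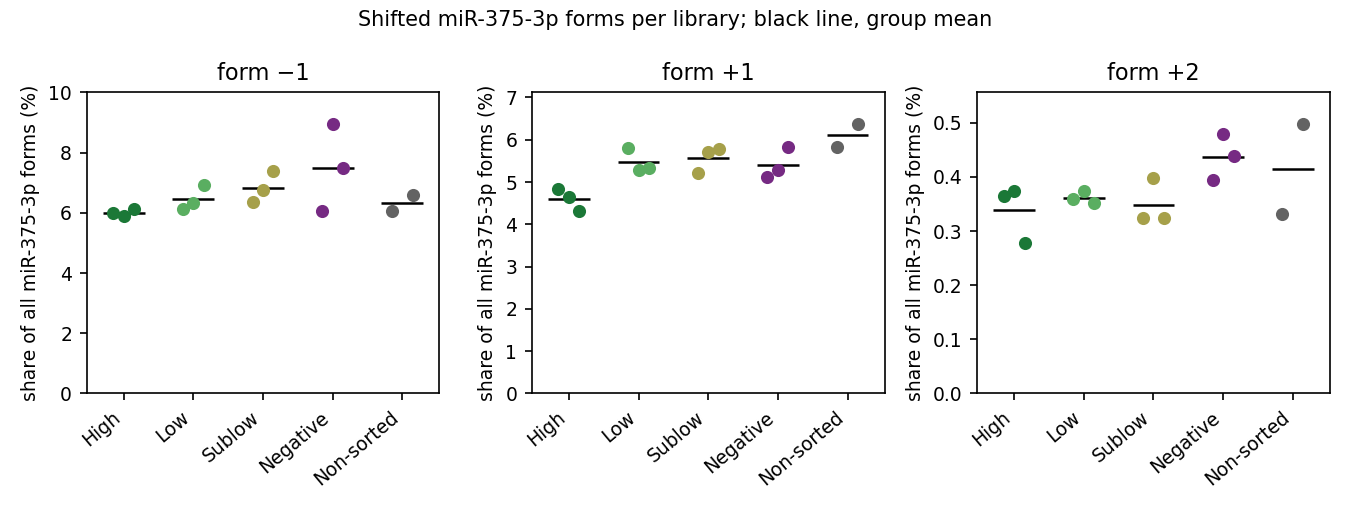
Share of all miR-375-3p reads in the −1, +1 and +2 forms, in percent, per library (points) with group means (black lines). The 3 High libraries have the lowest +1 shares, at 4.31 to 4.84%, and the Negative libraries spread widely in the −1 share, at 6.06 to 8.94%.

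The levels of the shifted forms, in RPM, followed the annotated form. The −1 form averaged 8325 RPM in High, 4254 RPM in Low, 1204 RPM in Sublow, 73.0 RPM in Negative and 732 RPM in Non-sorted cells, and the +1 form 6383, 3651, 987, 53.0 and 706 RPM in the same groups. Both fell in the same order as miR-375-3p itself. In High against Low the −1 form differed by 0.98 (log2, limma adjusted p = 0.0118), the +1 form by 0.83 (adjusted p = 0.0356) and the +2 form by 0.97 (adjusted p = 0.0181).

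Some of these calls between High and Low cells depended on a single library. The limma call of the +1 form was lost without High replicate 1 (adjusted p = 0.0784), High replicate 2 (0.0941), High replicate 3 (0.0513), Low replicate 2 (0.105) or Low replicate 3 (0.12). The call of the +2 form was lost without High replicate 2 (adjusted p = 0.0638), Low replicate 2 (0.0519) or Low replicate 3 (0.0725). Both calls were lost without the libraries that list miR-295-3p (0.0682 for +1 and 0.0713 for +2), and that of the +1 form also with no filter on low values (0.0602). In Low against Sublow the differences of the −1, +1 and +2 forms were 1.82, 1.87 and 1.94, and in Sublow against Negative they were 4.08, 4.24 and 3.59, with limma adjusted p-values of at most 2.11e-04. The rarer −2 form had 12.1 to 12.5 RPM in High, 4.46 to 7.60 RPM in Low and 1.95 to 3.33 RPM in Sublow libraries, and was listed at 0 in every Negative and Non-sorted library.

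The other strand of the hairpin was almost absent. miR-375-5p was listed at 3.05 RPM in High replicate 1 and at 0 in the other 13 libraries, and its +5 form was at 0 everywhere. In High replicate 1 the value equals about 40.9 reads, against 38799 times as many for miR-375-3p. With fewer than about 10 reads behind a 0, no ratio between the arms can be given for the other libraries, and none was compared between populations.

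Of the other miRNAs, the 5 whose pattern was most like that of miR-375-3p were miR-184-3p, miR-7a-2-3p, miR-7b-5p, miR-139-3p and let-7e-5p. Likeness was measured as Pearson's r on log2(RPM + 1) over the 12 sorted libraries, among 135 tested entries at the annotated start with a mean of at least 100 RPM in some population. It came to 0.994 for miR-184-3p (Spearman's rho 0.977), 0.991 for miR-7a-2-3p (0.949), 0.988 for miR-7b-5p (0.944), 0.983 for miR-139-3p (0.958) and 0.979 for let-7e-5p (0.965). The libraries fall into populations, share lanes and share a fixed total, so these values describe the pattern and carry no test. Both miR-184-3p and miR-7a-2-3p were listed at 0 in Negative replicates 1 and 2, so their r also depends on the added 1. The median r of the 135 entries was 0.677, and 98 had an r above 0. The mature sequences are shown to compare seeds, in capitals (RefSeq, GRCm38.p6).
miR-184-3p: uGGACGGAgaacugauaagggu
miR-7a-2-3p: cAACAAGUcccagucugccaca
miR-7b-5p: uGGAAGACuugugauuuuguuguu
miR-139-3p: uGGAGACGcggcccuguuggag
let-7e-5p: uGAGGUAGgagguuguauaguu

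These 5 miRNAs carry 5 different seeds, and their hairpins lie on chromosomes 9 (miR-184), 7 (miR-7a-2 and miR-139) and 17 (miR-7b and let-7e), none on chromosome 1 with Mir375. miR-7 is, like miR-375, known from pancreatic islets, and let-7 from the restraint of growth in many tissues. miR-184-3p had 336, 330 and 258 RPM in High, 263, 224 and 188 RPM in Low, 41.4, 34.0 and 32.4 RPM in Sublow, 0, 0 and 0.94 RPM in Negative, and 26.4 and 14.5 RPM in Non-sorted libraries. High and Low libraries of miR-184-3p overlapped, unlike those of miR-375-3p. Sublow libraries lay above Negative ones, by an amount that the listed 0 values leave unmeasured.

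miR-7b-5p averaged 9772 ± 2021 RPM in High, 8107 ± 822 RPM in Low, 1422 ± 367 RPM in Sublow, 50.3 ± 24.7 RPM in Negative (SD, n = 3 each) and 1480 ± 654 RPM in Non-sorted cells (SD, n = 2). Its High and Low libraries overlapped too. miR-7a-2-3p averaged 455 RPM in High, 282 RPM in Low, 41.3 RPM in Sublow, 0.583 RPM in Negative and 33.3 RPM in Non-sorted cells, and let-7e-5p 3034, 1945, 366, 64.6 and 280 RPM in the same groups. miR-139-3p had the largest ratio of High to Low means of the 5, with 470, 441 and 586 RPM in High libraries, against 156, 107 and 132 RPM in Low libraries. It then averaged 50.0 RPM in Sublow, 4.86 RPM in Negative and 47.7 RPM in Non-sorted cells.

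The 3 entries with the most opposite pattern were miR-5109 (r = −0.965, rho −0.874), miR-194-1-3p (r = −0.937, rho −0.909) and miR-194-2-5p (r = −0.937, rho −0.923). miR-194 is known as a miRNA of differentiated gut epithelium under hepatocyte nuclear factors. The mature sequences of its 2 arms are shown with the seed in capitals.
miR-194-1-3p: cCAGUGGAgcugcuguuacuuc
miR-194-2-5p: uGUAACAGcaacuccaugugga
miR-194-2-5p averaged 4421 RPM in High, 5592 RPM in Low, 16259 RPM in Sublow, 27861 RPM in Negative and 18260 RPM in Non-sorted cells, miR-194-1-3p 177, 243, 1286, 3130 and 2669 RPM, and miR-5109 133, 150, 609, 2388 and 1854 RPM. All 3 were lowest in High and highest in Negative cells. The 5p strand of miR-194 is the same from both of its hairpins, so by this sequence its reads cannot be assigned to miR-194-2 alone. The listed means still differ, at 109618 RPM for miR-194-1-5p and 27861 RPM for miR-194-2-5p in Negative cells. How the reads were divided is not given in the sources used here.

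**Figure D4:**
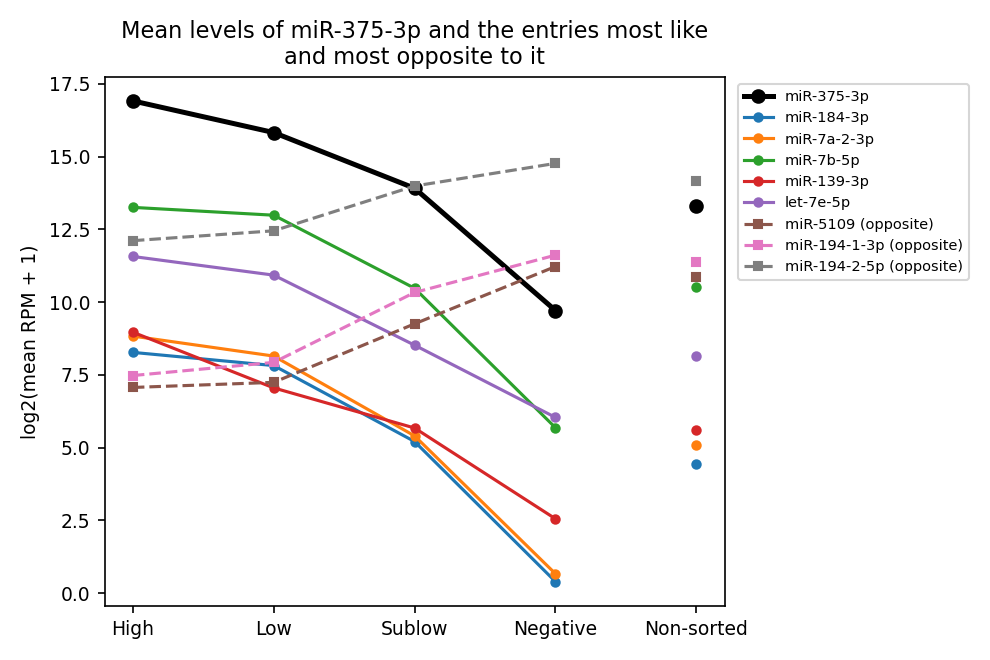
Mean level of miR-375-3p (black), of the 5 miRNAs most like it (solid lines) and of the 3 most opposite (dashed lines), as log2 of the mean RPM + 1 in each group; Non-sorted cells are drawn apart and unconnected. miR-375-3p has the highest mean of the 9 in High and Low cells, and the opposite entries lie highest in Negative cells.

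The balance between miR-375-3p and single other miRNAs differed between populations. Such a ratio within a library does not depend on its total. miR-375-3p was 10.04 to 15.1 times as abundant as miR-7b-5p in High libraries, 6.24 to 8.28 times in Low, 8.28 to 17.9 times in Sublow, 14.4 to 22.7 times in Negative and 6.45 to 7.73 times in Non-sorted libraries. High libraries lay above Low libraries in this ratio. Against miR-182-5p the ratio was 3.27 to 3.54 in High libraries, 3.68 to 5.74 in Low libraries, 1.40 to 1.94 in Sublow libraries, 0.163 to 0.262 in Negative libraries and 1.26 to 2.38 in Non-sorted libraries, so that Low libraries lay above High ones. Against miR-215-5p, a miRNA of differentiated gut epithelium, it was 2.46 to 3.61 in High libraries, 0.943 to 1.45 in Low libraries, 0.0545 to 0.0787 in Sublow libraries, 0.00190 to 0.00337 in Negative libraries and 0.0202 to 0.0421 in Non-sorted libraries. miR-375-3p was thus the more abundant in High cells and the less abundant in Sublow, Negative and Non-sorted cells.

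miR-375-3p belongs to a list of miRNAs known from endocrine and nerve cells, which holds 16 other tested entries among 20 other listed ones. The copies of miR-7a-5p, miR-129-5p, miR-128-3p and miR-218-5p share a mature sequence and cannot be told apart by it, so these entries are not independent. Their listed values still differ in part, with means of 30279 RPM for miR-7a-1-5p and 26769 RPM for miR-7a-2-5p in High cells. Of the 16, 5 (both miR-129-5p copies, miR-137-3p, miR-153-3p and miR-212-3p) passed the filter on low values only through High and Low libraries, and were bound to be higher there than in a group with hardly any reads. Counts over the 16 therefore describe these entries and support nothing. Between High and Low cells, where miR-375-3p rose by 1.10, 3 of the 16 were higher, 2 were lower and 11 did not pass. Over all entries 7.99% were higher and 20.1% lower, and the median log2 difference was 0.51 over the 16 and −0.11 over all entries. In Low against Sublow 12 were higher and 4 did not pass (median 1.68 against 0.43, with 24.3% of all entries higher), and in Sublow against Negative again 12 were higher and 4 did not pass (median 1.45 against 0.37, with 26.9% of all entries higher). None of the 16 was lower in these last 2 comparisons. For Low against Sublow the count was 7 of 16 after median-ratio rescaling and 7 with lane label as a term. Over the 11 members that did not need High and Low libraries to pass the filter, 2 were higher and 2 lower in High against Low, 9 were higher in Low against Sublow and 9 were higher in Sublow against Negative.

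In the wider comparisons the list counted 12 of 16 higher for High against Sublow (median 2.18 against 0.07 over all entries, of which 28.1% were higher). It counted 14 for High against Negative (median 3.93 against 0.57, 43.9% of all entries higher) and 16 for Low against Negative (median 3.64 against 0.90, 49.5% higher). Relative to Non-sorted cells, 13 were higher in High (median 2.72 against 0.49, 36.2% of all entries higher), 15 in Low (2.22 against 0.84, 46.1% higher) and 3 in Sublow cells (0.46 against 0.30, 16.7% higher). In Negative cells 6 were lower than in Non-sorted cells (median −1.17 against −0.11, 3.74% of all entries lower). Over the 11 members, 7 were higher in High than in Sublow cells (median 1.94), 9 in High than in Negative cells (median 3.09) and 11 in Low than in Negative cells (median 1.79). Relative to Non-sorted cells, 8 of the 11 were higher in High (median 2.28), 10 in Low (1.38) and 3 in Sublow cells (0.35). In Negative cells 6 of the 11 were lower than in Non-sorted cells (median −0.44). The other members did not pass, and none of the 16 passed in the opposite direction in any of these 7 comparisons. The count for Low against Non-sorted was 9 after median-ratio rescaling and 8 with lane label as a term, that for High against Non-sorted was 8 with lane label as a term, and that for Sublow against Non-sorted was 0 after median-ratio rescaling and 5 without Non-sorted replicate 1. The same rescaling turned the split of calls over all entries, to 87 higher and 113 lower for Low against Non-sorted (271 and 84 without it) and to 12 higher and 53 lower for Sublow against Non-sorted (98 and 43 without it). Without that replicate, 3 in place of 6 were lower in Negative than in Non-sorted cells.

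The limma calls of the endocrine members split in the step from Low to High cells. miR-182-5p and miR-183-5p, neighbours in a cluster known from sensory cells, had their largest step there. miR-182-5p had 36201, 39315 and 33101 RPM in High, 12485, 14436 and 13448 RPM in Low, 8342, 9498 and 9489 RPM in Sublow, 4030, 4363 and 4307 RPM in Negative, and 5270 and 6219 RPM in Non-sorted libraries. No sorted population overlapped with another. In limma it differed by 1.43 between High and Low (adjusted p = 1.39e-06), 0.56 between Low and Sublow (adjusted p = 8.00e-04) and 1.10 between Sublow and Negative (adjusted p = 6.81e-06). miR-183-5p gave 1.51 (adjusted p = 3.44e-06), 0.46 (adjusted p = 0.00747) and 1.11 (adjusted p = 1.61e-05) in the same comparisons. After median-ratio rescaling the calls of miR-182-5p and miR-183-5p between Low and Sublow were lost (limma adjusted p = 0.35 and 0.773), as they were after quantile normalization (0.224 and 0.261) and with a total that leaves out miR-215-5p (0.168 and 0.528). With lane label as a term the call of miR-183-5p was lost (0.0678), and after quantile normalization also that of miR-182-5p between Sublow and Negative (adjusted p = 0.536).

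miR-7b-5p, miR-7a-1-5p, miR-184-3p and miR-132-3p had the other pattern of calls, with High against Low differences that did not pass in limma: 0.25 for miR-7b-5p (adjusted p = 0.636), 0.21 for miR-7a-1-5p (0.621), 0.46 for miR-184-3p (0.291) and 0.77 for miR-132-3p (0.0948). They were higher in Low than in Sublow cells, by 2.54, 1.73, 2.61 and 2.23 (limma adjusted p of at most 3.74e-04). They were also higher in Sublow than in Negative cells, by 4.86, 1.93, 4.88 and 2.06 (limma adjusted p of at most 3.85e-04). The 4.88 of miR-184-3p is not a measured size, since this miRNA was listed at 0 in Negative replicates 1 and 2. It ran from 2.15 to 7.36 over the alternative settings, though the call held in all 26. miR-132-3p was also low in the Negative libraries, at 2.93, 3.46 and 3.06 RPM, where the added 1 weighs on the step. miR-375-3p itself passed at all 3 steps. miR-7b-5p and miR-184-3p were also named for their likeness to it, so their calls are no separate support. The miR-132-3p difference between High and Low passed without Low replicate 1 (1.10, limma adjusted p = 0.0217), after median-ratio rescaling (1.09, adjusted p = 0.02) and with a pseudocount of 10 (0.71, adjusted p = 0.0445).

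miR-153-3p, a miRNA of neurons, had 70.5, 127 and 55.0 RPM in High, 19.7, 20.1 and 16.7 RPM in Low, 3.05, 0 and 2.27 RPM in Sublow, 0 in all Negative, and 4.95 and 0 RPM in Non-sorted libraries. High and Low libraries did not overlap, but the limma call (2.02, adjusted p = 0.0432) was lost in 10 of 14 fits that left out a single library, with an adjusted p of up to 0.144 without High replicate 2. The 2 copies of miR-218-5p, known from motor neurons, were lower in High than in Low cells. miR-218-1-5p had 14.5, 18.6 and 16.9 RPM in High, 45.0, 38.3 and 72.1 RPM in Low, 22.6, 18.2 and 23.4 RPM in Sublow, 19.7, 13.2 and 12.3 RPM in Negative, and 22.9 and 15.9 RPM in Non-sorted libraries. It was highest in Low cells, with −1.53 for High against Low (limma adjusted p = 0.00182) and 1.19 for Low against Sublow (adjusted p = 0.00657), a pattern that miR-375-3p did not show. The call of miR-218-1-5p between Low and Sublow was lost after median-ratio rescaling (limma adjusted p = 0.0615), after quantile normalization (0.0569) and with lane label as a term (0.148). The sequences of the 2 miR-7 strands with a common seed and of the members that stepped up or down between High and Low are shown with the seed in capitals.
miR-7a-5p: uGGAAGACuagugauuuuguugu
miR-7b-5p: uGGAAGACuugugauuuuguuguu
miR-182-5p: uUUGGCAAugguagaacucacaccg
miR-183-5p: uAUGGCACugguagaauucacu
miR-153-3p: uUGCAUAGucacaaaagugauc
miR-218-5p: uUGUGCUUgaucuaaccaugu

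**Figure D5:**
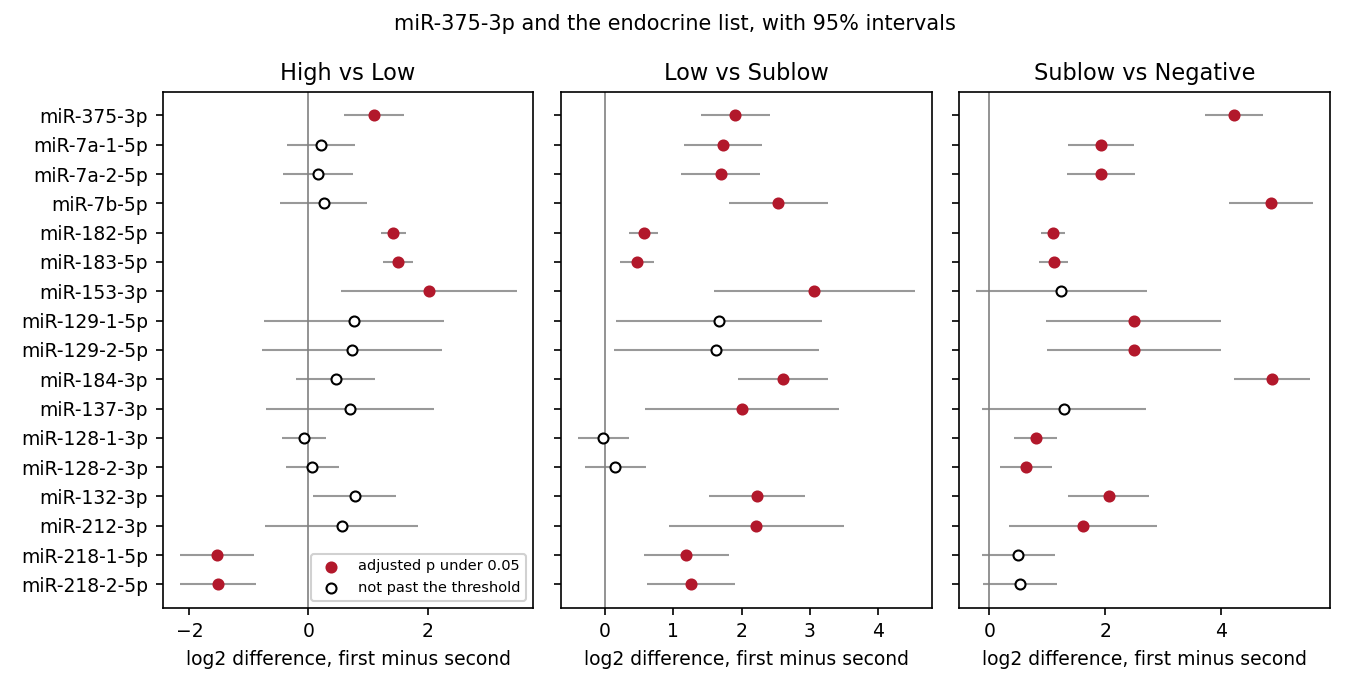
Log2 difference on the log2(RPM + 1) scale with 95% intervals for miR-375-3p and the 16 other tested entries of the endocrine list, the brighter minus the dimmer population in each panel. Filled points passed the limma test at an adjusted p under 0.05. miR-375-3p is filled in all 3 panels, at 1.10, 1.91 and 4.23, while miR-7b-5p and miR-184-3p are open in High vs Low and filled in the other panels.

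The summed level of the endocrine list, miR-375-3p included, was 211371 to 240672 RPM in High, 120520 to 145510 RPM in Low, 40667 to 43794 RPM in Sublow, 9046 to 10819 RPM in Negative and 24134 to 37480 RPM in Non-sorted libraries. Since miR-375-3p itself is a large part of this sum, its order is partly fixed. The other listed members alone summed to 94356 to 122336 RPM in High, 71046 to 73911 RPM in Low, 22283 to 30003 RPM in Sublow, 8335 to 9689 RPM in Negative and 16272 to 24961 RPM in Non-sorted libraries. The sorted populations did not overlap in the sum of the other members, and the Sublow and Non-sorted ranges did. A few entries make up most of this sum, whose mean was 107233 RPM in High cells. There miR-182-5p averaged 36206 RPM, and the miR-7a-5p strand, entered as 2 copies, 30279 and 26769 RPM. High and Low libraries overlapped for both miR-7a-5p copies and miR-7b-5p but not for miR-182-5p, so the order of the sum is not that of each member.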

How the data were processed

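The 14 small RNA libraries were prepared with a TriLink CleanTag kit, per the labels' protocols. The authors deposited one table of RPM values in which every library sums to 1e+06 over the miRNA entries. The submitters' processing notes name the build mm9; an aligner or counter is not given in the sources used here. Depth was estimated from the steps between low values, of which 70.6 to 85.6% were whole reads within 0.1 read, too few for a count test. Entries with at least 10 RPM in at least 3 libraries were tested (588, of which 275 at the annotated start) as log2(RPM + 1), a scale that understates changes of low entries. One model of the 5 groups was fitted in R 4.3.3 with limma 3.58.1 (trended empirical Bayes, two-sided, threshold 0.05 after Benjamini-Hochberg adjustment). Shares of shifted forms were compared by exact permutation over the 12 sorted libraries. Tested on simulated data for High against Low, with 588 entries, the model recovered 48% of changes of 1 log2 unit and 86% of changes of 3. miRNAs named are the miR-375 entries, the 5 most alike, the 3 most opposite and the endocrine list. Members, lists and tests were chosen with earlier results of these data known. Alternatives changed the pseudocount, filter, scaling, lane or replicate terms, groups fitted, summing of forms and libraries kept; those concerning miR-295-3p, the form shares within replicate number and the members that need High and Low libraries were added after seeing the data. Sequences came from RefSeq tables (GRCm38.p6), where 21 of 23 named entries matched; no coordinates of the deposited table were used. Python 3.11.15 with matplotlib 3.10.9 drew the figures.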

Additional observations from a re-analysis of the deposited data

How the results depend on the processing

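Of 282 alternative values for miR-375-3p, 281 kept their direction and side of the threshold, none reversed, and 1 passed that had not: Sublow against Non-sorted without Non-sorted replicate 1 (0.96, limma adjusted p = 0.0424). Many of these values could not reverse. An F has no direction, and leaving out a library of a group not compared changes the p-value but not the difference. The total therefore overstates how often the direction was put to a check. When each library was left out in turn, the difference lay between 0.998 and 1.27 for High against Low (adjusted p up to 0.0214), between 1.75 and 2.04 for Low against Sublow, between 4.08 and 4.47 for Sublow against Negative and between 0.29 and 0.96 for Sublow against Non-sorted. Leaving out a library gave adjusted exact permutation p-values of 0.00545 to 0.239 for the share of the annotated start, 0.00857 to 0.292 for the −1 form, 0.0323 to 0.202 for the +1 form and 0.0378 to 0.279 for the +2 form; without Negative replicate 1 all 4 passed, and without Negative replicate 3 the +1 form did (0.0447).

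The descriptions give each replicate number a common identifier in all groups, without saying what it marks. Same-numbered libraries deviated together in part (correlations −0.354 to 0.776, median 0.329, 17 of 26 pairs above 0.1, against a median of −0.106 and 11 of 52 for other pairs), so the numbers may mark a shared source but were not taken to pair the libraries. With a replicate block the High against Low difference stayed at 1.10 (adjusted p = 0.00751), F was 343, and no call of miR-375-3p changed. With labels permuted within replicate number, an alternative added after seeing the data, the exact permutation p of each of the 4 form shares was 0.0608 after adjustment. With lane label as a term, Combo as a class of its own, High against Low was 1.30 (limma adjusted p = 0.0125). This estimate rests on the same Combo libraries as the difference within Combo given earlier, so it is no further check.

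Counts moved more than single values. Endocrine members past the threshold numbered 7 of 16 for Low against Sublow both after median-ratio rescaling and with a lane term, in place of 12. For High against Non-sorted they numbered 8 with a lane term, in place of 13, for Sublow against Non-sorted 1 after quantile normalization and 1 with only these groups fitted, in place of 3, and for Negative against Non-sorted 1 with only these groups fitted, in place of 6. Over all entries, Sublow against Non-sorted gave 141 calls and 56 to 82 under 8 alternatives, and Negative against Non-sorted 22 calls and 4 with only these groups fitted. With a lane term calls numbered 159 in place of 297 for High against Sublow, 239 in place of 390 for High against Negative, 157 in place of 339 for High against Non-sorted, 130 in place of 204 for Low against Sublow and 182 in place of 355 for Low against Non-sorted, which gave 200 after median-ratio rescaling. Summing the forms of a name left fewer entries to test and 77 to 184 calls in the 9 comparisons other than Negative against Non-sorted. Sublow against Negative gave 129 calls in place of 209 without the libraries that list miR-295-3p. Median-ratio rescaling also moved the split of calls: 81 higher and 70 lower in place of 47 and 118 for High against Low, 68 and 86 in place of 143 and 61 for Low against Sublow, 131 and 136 in place of 291 and 97 for Low against Negative, 68 and 75 in place of 158 and 51 for Sublow against Negative, 193 and 172 in place of 258 and 132 for High against Negative, 154 and 149 in place of 213 and 126 for High against Non-sorted, and 5 and 20 in place of 0 and 22 for Negative against Non-sorted. Leaving miR-215-5p out of the total gave 115 higher and 185 lower in place of 165 and 132 for High against Sublow, 182 and 170 for High against Negative, 140 and 162 for High against Non-sorted, 80 and 82 for Low against Sublow, 196 and 116 for Low against Negative, 139 and 95 for Low against Non-sorted, and 37 and 45 for Sublow against Non-sorted. The cause of these moves was not tested. Depth limits the arms: a value under about 10 reads is listed as 0.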
